A study of Homo sapiens with 24 samples.

Results

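The 10 genes described here belong to the Hippo pathway or are transcribed under its control. They are the YAP target genes CCN1, CCN2 and ANKRD1, the angiomotin-like genes AMOTL1 and AMOTL2, the kinase genes LATS1 and LATS2, the coactivator genes YAP1 and WWTR1, and the transcription factor gene TEAD1. They were chosen by name and found by symbol among the 61533 genes of the deposited count table, and all 10 were among the 23651 genes abundant enough to test. The Hippo pathway is a kinase cascade that limits tissue growth. LATS kinases phosphorylate YAP and TAZ (the product of WWTR1), which holds these coactivators in the cytoplasm. Unphosphorylated YAP and TAZ enter the nucleus, bind TEAD factors at the letters CATTCC and activate genes such as CCN1, CCN2 and ANKRD1, which are widely read as a measure of YAP and TAZ activity. Actin tension, cell spreading and serum factors are known inputs to the pathway.

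The assay was 4sU-seq, which enriches RNA that took up 4-thiouridine during transcription and so reads mainly recently made RNA. The cells were lines of U2OS, a human osteosarcoma line, stably expressing the glucocorticoid receptor (GR) with a HaloTag, carrying wt GR, SoF GR (K492A) or Ctrl GR (R470A). Per the paper, a GR fragment with K492A had lost affinity for RNA and, to a lesser degree, for DNA in vitro. The R470A fragment had lost affinity for DNA and kept that for RNA, and served to match the DNA loss of SoF. Loss of RNA binding was not specifically tested in the cells. Each line was given the GR agonist dexamethasone at 100 nM for 1, 2 or 3 h or, as the 0 h group, 0.01% ethanol. Every group also received 200 µM 4-thiouridine for its last hour, so that each time reads mainly RNA made in the hour before it. Loss of labelled RNA within that hour was not measured. The 12 groups of line and time held 2 libraries each, 24 in all. The constructs were expressed from a CMV promoter plasmid inserted with PiggyBac, and parental U2OS cells have very little endogenous GR. Each line was 1 sorted pool, so construct and pool cannot be told apart, and the time the 0 h dishes spent in ethanol is not stated. Cells grew in medium with charcoal-stripped serum, which was replaced at the start by the same medium holding dexamethasone or ethanol. With 1 ethanol group per line, hours of dexamethasone and hours since the medium change cannot be told apart. No label says that the 2 libraries of a group came from separate cultures, so p-values measure the spread between these libraries, which may be technical. Per the methods, replicates of a sample were biotinylated and pulled down as pairs. If such a pair is the 2 libraries of a group, differences between pulldowns go with group. This spread would then leave them out. Library totals ran from 8106036 to 15820806 counts. Of the osteoblast lineage markers, RUNX2 lay between 51.4 and 158 CPM (counts scaled to a common library size by TMM), COL1A1 between 249 and 1006, SPARC between 206 and 381 and ALPL between 8.05 and 43.9, whereas SP7, COL1A2 and IBSP did not exceed 0.6 CPM and BGLAP 1.32. Of 7 markers of other cell types, KRT14 reached 9.55 CPM, EPCAM 3.59, KRT5 2.22 and PTPRC 2.17, and PECAM1, ALB and CD3E stayed at or under 0.595.

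The promoters of CCN2 and ANKRD1 are shown because the results turn on these genes and their windows hold the letters that TEAD factors are known to bind. RefSeq promoter windows (GRCh38.p14) of 300 bases, 250 before the transcription start and 50 from it, matched 8 of the 10 members, all but CCN1 and TEAD1. The windows were searched for CATTCC on both strands (GGAATG on the other), which 14% of 35116 windows of that length hold, 1.37% hold at least 2 times and 0.128% at least 3 times. The CCN2 window held 3 matches and the ANKRD1 window 2, all read as GGAATG on the strand of the gene. The 250 bases before each start are printed 5′ to 3′ on the gene's strand, with the matches in capitals, from chr6:131951373-131951622 (minus strand) and chr10:90921088-90921337 (minus strand).
CCN2: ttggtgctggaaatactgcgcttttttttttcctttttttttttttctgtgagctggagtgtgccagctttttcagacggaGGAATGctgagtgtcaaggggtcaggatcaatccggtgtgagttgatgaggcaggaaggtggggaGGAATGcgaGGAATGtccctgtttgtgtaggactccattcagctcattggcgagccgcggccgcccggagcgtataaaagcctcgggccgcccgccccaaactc
ANKRD1: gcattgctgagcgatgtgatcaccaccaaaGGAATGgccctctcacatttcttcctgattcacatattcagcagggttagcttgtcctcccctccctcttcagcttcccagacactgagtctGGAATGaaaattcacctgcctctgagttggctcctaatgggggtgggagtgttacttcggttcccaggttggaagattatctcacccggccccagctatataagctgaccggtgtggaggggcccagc

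In CCN2 the matches began at -169, -104 and -95 relative to the start, and in ANKRD1 at -220 and -128. YAP1, AMOTL2 and LATS2 had 1 match each, shown with the bases around it from chr11:102110273-102110302 (plus strand), chr3:134374499-134374528 (minus strand) and chr13:21061560-21061589 (minus strand).
YAP1: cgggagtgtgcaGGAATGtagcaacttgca
AMOTL2: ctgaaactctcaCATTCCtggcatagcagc
LATS2: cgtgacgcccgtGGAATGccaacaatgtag
The AMOTL2 match lay at 1 of its annotated starts and the LATS2 match in the first transcribed bases. The windows of AMOTL1, LATS1 and WWTR1 held no match, which says only that these letters are not in those windows. AGAACA, an arm of the glucocorticoid response element, was found on either strand in 14.8% of all windows and, among the members, in those of LATS1 (2 matches) and AMOTL2 (1 match). A match is a description of the sequence and not evidence of binding.

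The target genes stood far above the regulators. Per kilobase of exon, the mean over 24 libraries was 1406 CPM for CCN2, 1211 for CCN1 and 865 for ANKRD1, and in plain CPM these genes ranked 24, 15 and 43 among the 23651 genes. AMOTL2 followed at 64.7 CPM per kilobase, then TEAD1 at 28.4, LATS2 at 25.8, YAP1 at 13.3, AMOTL1 at 11.5, LATS1 at 10.4 and WWTR1 at 6.71. Across libraries the ranges of neighbours overlapped for CCN2, CCN1 and ANKRD1, for TEAD1 and LATS2, and for YAP1, AMOTL1, LATS1 and WWTR1. LATS2 and YAP1 met only at their edges, with a lowest value of 18.6 and a highest of 18.7, and AMOTL2 overlapped neither neighbour. Together CCN1, CCN2 and ANKRD1 took 0.881% to 1.67% of all counts at 0 h, 1.28% to 1.65% at 1 h, 0.549% to 0.657% at 2 h and 0.41% to 0.531% at 3 h. The share was lower in every 2 h and 3 h library than in every 0 h and 1 h library.

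**Figure D1:**
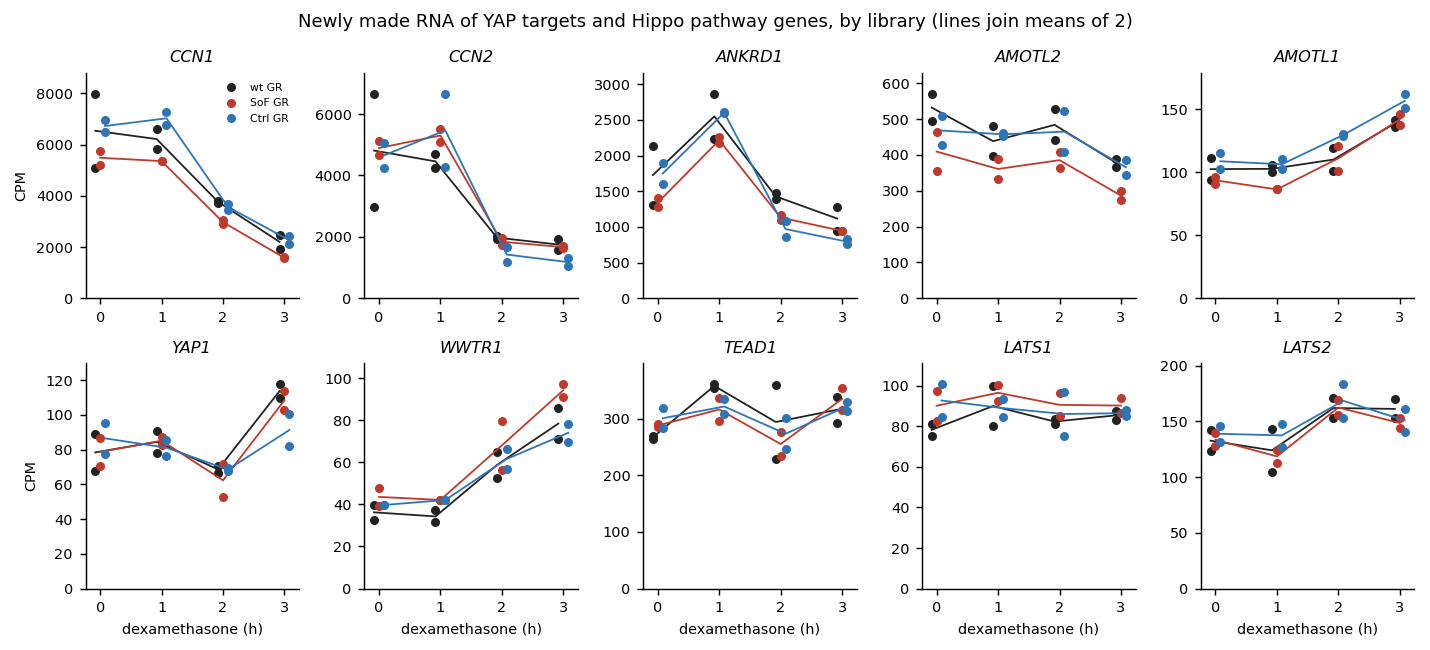
Each panel plots the CPM of 1 gene (y axis, from 0) against hours of dexamethasone (x axis), with 1 point per library, coloured by GR line, and lines joining the means of the 2 libraries. CCN1 and CCN2 drop after 1 h in every line, ANKRD1 peaks at 1 h, WWTR1 and AMOTL1 climb to 3 h, and LATS1 stays between 75.3 and 101 CPM.

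The first question was how the pathway's genes moved with time in dexamethasone, which was also time since the medium change. Changes were taken as the mean of those in the 3 lines. At 3 h CCN1, CCN2, ANKRD1 and AMOTL2 had fallen and WWTR1, AMOTL1 and YAP1 had risen, while LATS1, LATS2 and TEAD1 did not pass the test (edgeR's quasi-likelihood test, Benjamini-Hochberg adjusted p under 0.05). That is 4 members called lower, where 19.3% of all tested genes were, and 3 called higher, where 20.9% were. At 2 h 4 members had fallen (12.6% of all genes) and 2 had risen (16.2%). At 1 h only ANKRD1 passed, against 1.28% of all genes in either direction. The median log2 change of the members was 0.01 at 1 h, -0.07 at 2 h and 0.10 at 3 h, beside 0.01, -0.03 and -0.03 over all tested genes. All changes from 0 h share the 0 h libraries, so the 3 times are not independent of each other. Same-numbered 0 h libraries also deviated together across lines, with correlations across genes of 0.40 (wt and SoF), 0.39 (wt and Ctrl) and 0.57 (SoF and Ctrl). The number of all genes called in the mean of 3 lines went from 303 to 5348 at 1 h, from 6812 to 3305 at 2 h and from 9525 to 6814 at 3 h without the 3 libraries of replicate 2 at 0 h, and to 129, 9850 and 11122 without those of replicate 1. In bulk libraries, fewer cells making a transcript and less transcript made per cell cannot be told apart.

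CCN1 (gene ENSG00000142871.18, hg38 chr1:85580761-85584589, plus strand) encodes a secreted matricellular protein that binds integrins. Its level in wt GR cells was 5097 and 7992 CPM at 0 h, 5823 and 6618 at 1 h, 3798 and 3735 at 2 h, and 2467 and 1946 at 3 h. In SoF GR cells it was 5756 and 5224 CPM at 0 h, 5358 and 5362 at 1 h, 3044 and 2905 at 2 h, and 1605 and 1559 at 3 h. Ctrl GR cells had 6955 and 6505 CPM at 0 h, 6781 and 7281 at 1 h, 3456 and 3690 at 2 h, and 2425 and 2108 at 3 h. Levels at 0 h and 1 h overlapped, and every 2 h library lay below all of them and above every 3 h library. The log2 change, as the mean of 3 lines, was -0.01 ± 0.10 (SE) at 1 h (adjusted p = 0.965), -0.87 ± 0.10 at 2 h (adjusted p = 2.21e-06) and -1.65 ± 0.11 at 3 h (adjusted p = 1.32e-10). At 3 h this was 3.13-fold lower, and the change ranked 438 from the lowest among 23651 genes, beside 428 for CCN2.

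CCN2 (ENSG00000118523.6, chr6:131948176-131951372, minus strand), connective tissue growth factor, is the matricellular relative of CCN1 that promotes matrix production. In wt GR cells it measured 2960 and 6663 CPM at 0 h, 4685 and 4233 at 1 h, 2022 and 1934 at 2 h, and 1580 and 1923 at 3 h. SoF GR cells had 4667 and 5121 CPM at 0 h, 5096 and 5511 at 1 h, 1949 and 1738 at 2 h, and 1641 and 1696 at 3 h. In Ctrl GR cells the values were 4245 and 5058 CPM at 0 h, 4285 and 6656 at 1 h, 1183 and 1669 at 2 h, and 1041 and 1316 at 3 h. Unlike CCN1, CCN2 was already near its 3 h level at 2 h, and the 2 h and 3 h libraries overlapped. Its mean log2 change was 0.08 ± 0.15 at 1 h (adjusted p = 0.831), -1.47 ± 0.15 at 2 h (adjusted p = 3.45e-07) and -1.66 ± 0.16 at 3 h (3.17-fold lower, adjusted p = 2.74e-08). The first 0 h library of wt GR cells was the lowest of the 0 h libraries and the second the highest, a difference of 1.17 on the log2 scale that no other pair of CCN2 libraries reached.

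ANKRD1 (ENSG00000148677.7, chr10:90912096-90921087, minus strand) encodes a nuclear ankyrin repeat protein, abundant in heart muscle, that responds to mechanical load. In wt GR cells its level was 1314 and 2140 CPM at 0 h, 2231 and 2867 at 1 h, 1388 and 1469 at 2 h, and 1286 and 949 at 3 h. SoF GR cells showed 1281 and 1403 CPM at 0 h, 2256 and 2175 at 1 h, 1169 and 1094 at 2 h, and 946 and 943 at 3 h. Ctrl GR cells had 1598 and 1899 CPM at 0 h, 2599 and 2604 at 1 h, 857 and 1084 at 2 h, and 827 and 762 at 3 h. Every 1 h library lay above every library of the other times, the lowest 1 h value being 2175 CPM and the highest 0 h value 2140. Relative to 0 h, the mean log2 change was 0.62 ± 0.11 at 1 h (1.54-fold higher, adjusted p = 0.0037), -0.46 ± 0.11 at 2 h (adjusted p = 0.00431) and -0.76 ± 0.11 at 3 h (1.69-fold lower, adjusted p = 1.6e-05). The calls at 1 h and 2 h depended on which 0 h libraries served as the base, and the call at 3 h was kept in all 19 alternatives (-0.92 to -0.55). Without the 3 libraries of replicate 1 at 0 h the change at 1 h was 0.44 (adjusted p = 0.112), and without those of replicate 2 the change at 2 h was -0.26 (adjusted p = 0.122).

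The comparison of 3 h with 1 h uses none of the 0 h libraries. Here 4 members had fallen, as had 25.6% of all tested genes, and 4 had risen, as had 25%. The log2 change from 1 h to 3 h was -1.63 for CCN1 (adjusted p = 2.14e-10), -1.74 for CCN2 (adjusted p = 1.34e-08) and -1.38 for ANKRD1 (adjusted p = 5.27e-09). WWTR1 rose by 1.06 (adjusted p = 2.4e-08), AMOTL1 by 0.57 (adjusted p = 2.9e-06), YAP1 by 0.32 (adjusted p = 0.00922) and LATS2 by 0.28 (adjusted p = 0.012). AMOTL2 changed by -0.29 (adjusted p = 0.0155), a call that was lost without any 1 of 4 libraries (wt or SoF at 1 h, replicate 1, and SoF or Ctrl at 3 h, replicate 1), with changes of -0.26 to -0.23.

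**Figure D2:**
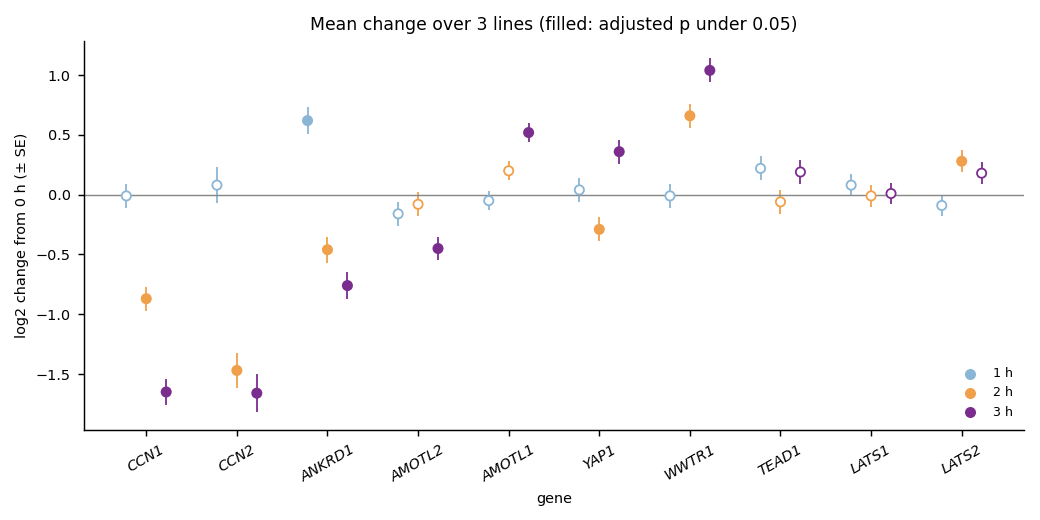
The y axis gives the log2 change from 0 h as the mean of 3 lines, with bars of 1 SE, for each gene on the x axis at 1 h (blue), 2 h (orange) and 3 h (purple), filled where the adjusted p is under 0.05. CCN1 and CCN2 reach -1.65 and -1.66 at 3 h and WWTR1 reaches 1.04, while ANKRD1 goes from 0.62 at 1 h to -0.76 at 3 h.

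Of the coactivator genes, WWTR1 rose at 2 h and 3 h, whereas YAP1 was lower at 2 h and higher at 3 h. WWTR1 (ENSG00000018408.15, chr3:149517235-149736714, minus strand) encodes TAZ, the coactivator paralogous to YAP. In wt GR cells it measured 32.5 and 39.9 CPM at 0 h, 37.1 and 31.4 at 1 h, 52.4 and 65 at 2 h, and 71 and 85.8 at 3 h. SoF GR cells had 39.2 and 47.9 CPM at 0 h, 42.2 and 41.9 at 1 h, 56.5 and 79.4 at 2 h, and 91.2 and 97.2 at 3 h. Ctrl GR cells had 39.6 and 39.8 CPM at 0 h, 42.1 and 42 at 1 h, 56.9 and 66.2 at 2 h, and 69.7 and 78.3 at 3 h. No library at 2 h or 3 h overlapped a library at 0 h or 1 h. For WWTR1 the mean log2 change was -0.01 ± 0.10 at 1 h (adjusted p = 0.965), 0.66 ± 0.10 at 2 h (adjusted p = 2.98e-05) and 1.04 ± 0.10 at 3 h (2.06-fold higher, adjusted p = 3e-08), rank 882 from the highest of 23651. WWTR1 shares 756 exon bases with WWTR1-AS1 on the opposite strand, which had 1352 counts in all libraries together. That the counting used strand is known only from the title of the table.

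YAP1 (ENSG00000137693.14, chr11:102110447-102233424, plus strand), the gene of the YAP coactivator itself, did not follow WWTR1 at 2 h. Its level in wt GR cells was 67.9 and 89 CPM at 0 h, 90.7 and 78.3 at 1 h, 66.7 and 70.7 at 2 h, and 118 and 110 at 3 h. SoF GR cells had 70.7 and 86.7 CPM at 0 h, 87.5 and 82.8 at 1 h, 53 and 71.8 at 2 h, and 103 and 114 at 3 h. In Ctrl GR cells it was 77.4 and 95.6 CPM at 0 h, 85.8 and 76.5 at 1 h, 69.6 and 67.5 at 2 h, and 82.3 and 100.3 at 3 h. All 6 libraries at 2 h lay below all 6 at 1 h and all 6 at 3 h, and they overlapped the 0 h range of 67.9 to 95.6 CPM. The mean log2 change was 0.04 ± 0.10 at 1 h (adjusted p = 0.859), -0.29 ± 0.10 at 2 h (adjusted p = 0.0296) and 0.36 ± 0.10 at 3 h (adjusted p = 0.00479). The call at 2 h was lost without any 1 of 7 libraries (at 0 h replicate 2 of wt, SoF or Ctrl, at 2 h replicate 1 of wt, SoF or Ctrl, or replicate 2 of Ctrl), with changes of -0.29 to -0.22, and without the 3 libraries of replicate 2 at 0 h the change was -0.12 (adjusted p = 0.493). The call at 3 h was lost without the 3 libraries of replicate 1 at 0 h (0.21, adjusted p = 0.107).

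AMOTL1 (ENSG00000166025.18, chr11:94706431-94876748, plus strand) and AMOTL2 (ENSG00000114019.15, chr3:134355347-134375479, minus strand) encode angiomotin-like scaffold proteins that bind YAP and TAZ at cell junctions, and AMOTL2 is also a YAP target. AMOTL1 in wt GR cells was 93.5 and 111 CPM at 0 h, 106 and 99.8 at 1 h, 101 and 119 at 2 h, and 136 and 141 at 3 h. SoF GR cells had 90.9 and 96.2 CPM at 0 h, 86.4 and 86.3 at 1 h, 101 and 121 at 2 h, and 138 and 146 at 3 h, and Ctrl GR cells had 115 and 102 at 0 h, 102 and 110.2 at 1 h, 129 and 130.4 at 2 h, and 151 and 162 at 3 h. Every 3 h library lay above all libraries of the other times. The mean log2 change was -0.05 ± 0.08 at 1 h (adjusted p = 0.795), 0.20 ± 0.08 at 2 h (adjusted p = 0.052) and 0.52 ± 0.08 at 3 h (1.43-fold higher, adjusted p = 1.17e-05).

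AMOTL2 went the other way and less clearly. Its levels in wt GR cells were 571 and 493 CPM at 0 h, 480 and 396 at 1 h, 527 and 441 at 2 h, and 390 and 367 at 3 h. SoF GR cells had 465 and 354 CPM at 0 h, 388 and 333 at 1 h, 407 and 364 at 2 h, and 273 and 300 at 3 h, and Ctrl GR cells had 509 and 427 at 0 h, 453 and 462 at 1 h, 407 and 523 at 2 h, and 345 and 386 at 3 h. Within each line both 3 h libraries were below both 0 h libraries, and across lines the groups overlapped. The mean log2 change was -0.16 ± 0.10 at 1 h (adjusted p = 0.437), -0.08 ± 0.10 at 2 h (adjusted p = 0.575) and -0.45 ± 0.10 at 3 h (1.37-fold lower, adjusted p = 0.000668). AMOTL2 shares 187 exon bases on the same strand with the pseudogene RPL39P5 (1137 counts in all libraries), and counting could divide or drop reads there.

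Ratios of paralogues within a library do not depend on the scaling between libraries. In counts per exon base, AMOTL2 stood at 5.69 to 9.45 times AMOTL1 in the 6 libraries at 0 h, 5.98 to 7.04 at 1 h, 4.66 to 8.07 at 2 h and 3.08 to 4.43 at 3 h, so that all 6 ratios at 3 h were below all others. WWTR1 stood at 0.315 to 0.419 of YAP1 at 0 h, 0.303 to 0.415 at 1 h, 0.593 to 0.836 at 2 h and 0.455 to 0.67 at 3 h, with no overlap between the earlier and later pairs of times. The CCN2 to CCN1 ratio had a median of 1.25 at 0 h, 1.36 at 1 h, 0.831 at 2 h and 1.29 at 3 h. It ran from 0.919 to 1.55 at 0 h, 1 to 1.63 at 1 h, 0.541 to 1.01 at 2 h and 0.679 to 1.72 at 3 h. At 3 h the ratio was 0.679 and 0.988 in Ctrl GR cells and above 1 in the libraries of the other lines. These ratios are given as descriptions, without a test.

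**Figure D3:**
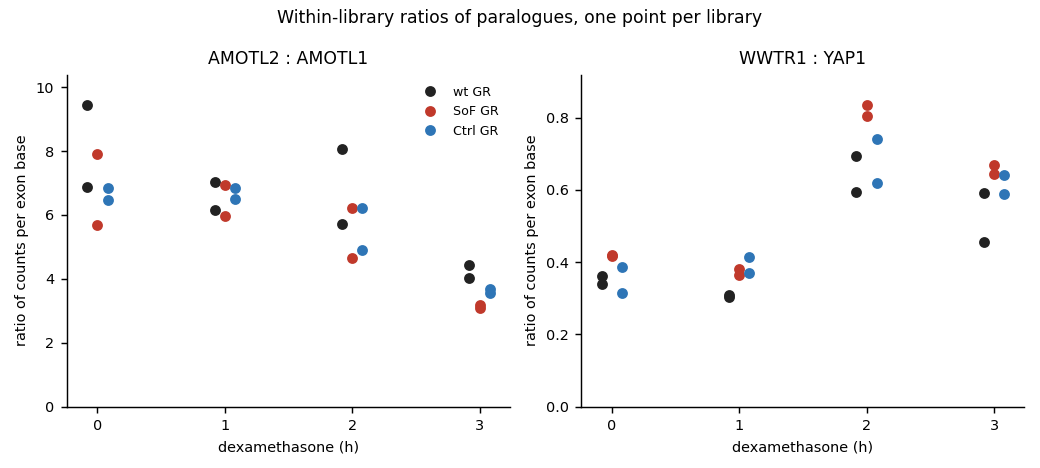
The y axes (from 0) give the ratio of counts per exon base of AMOTL2 to AMOTL1 (left) and of WWTR1 to YAP1 (right) in each library, against hours of dexamethasone on the x axis, coloured by GR line. The left ratio is 3.08 to 4.43 at 3 h against 5.69 to 9.45 at 0 h, and the right ratio is 0.455 or more in every library at 2 h and 3 h against 0.419 or less at 0 h and 1 h.

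Changes of the kinases and the DNA-binding partner from 0 h did not exceed 0.28 on the log2 scale in the mean of 3 lines. Of these, only that of LATS2 at 2 h was called. LATS1 (ENSG00000131023.13, chr6:149658153-149718105, minus strand) and LATS2 (ENSG00000150457.9, chr13:20973036-21061586, minus strand) encode the kinases that phosphorylate YAP and TAZ. LATS1 lay between 75.3 and 101 CPM at 0 h, 80.2 and 100.6 at 1 h, 75.3 and 96.9 at 2 h, and 83.4 and 93.8 at 3 h, and its mean log2 changes were 0.08 ± 0.09, -0.01 ± 0.09 and 0.01 ± 0.09 (adjusted p = 0.68, 0.953 and 0.943). LATS2 lay between 123.4 and 146 CPM at 0 h, 105 and 148 at 1 h, 153 and 184 at 2 h, and 141 and 170 at 3 h. All LATS2 libraries at 2 h were above all at 0 h and 1 h, with a mean log2 change of 0.28 ± 0.09 (adjusted p = 0.0194), and the changes at 1 h and 3 h were -0.09 ± 0.09 (adjusted p = 0.639) and 0.18 ± 0.09 (adjusted p = 0.102). The LATS2 call at 2 h was lost without any 1 of 6 libraries (at 0 h replicate 2 of wt, SoF or Ctrl, at 2 h replicate 1 of wt or SoF, or replicate 2 of Ctrl), with changes of 0.23 to 0.27, without the 3 libraries of replicate 2 at 0 h (0.20, adjusted p = 0.23), and with library totals in place of TMM (0.22, adjusted p = 0.0575). TEAD1 (ENSG00000187079.20, chr11:12674421-12944737, plus strand), whose product carries YAP and TAZ to DNA, lay between 264 and 319 CPM at 0 h, 296 and 362 at 1 h, 230 and 359 at 2 h, and 293 and 354 at 3 h. Its mean log2 changes were 0.22 ± 0.10, -0.06 ± 0.10 and 0.19 ± 0.10 (adjusted p = 0.312, 0.693 and 0.135), and the widest gap between its replicates was 230 against 359 CPM in wt GR cells at 2 h.

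Taking the libraries at 0 h and 3 h without regard to line, 2 members, CCN1 and CCN2, had every 3 h library below every 0 h library, as had 6.74% of all tested genes. AMOTL1 and WWTR1 had every 3 h library above every 0 h library, as had 9.89% of all genes. The other 6 members overlapped.

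The second question was whether each line showed these changes by itself. CCN1 and CCN2 fell and WWTR1 rose in each of wt, SoF and Ctrl GR cells at both 2 h and 3 h, and AMOTL1 rose in each line at 3 h. At 3 h in wt GR cells 3 members had fallen (CCN1, CCN2 and ANKRD1, against 4.12% of all genes) and 3 had risen (WWTR1, AMOTL1 and YAP1, against 6.6%). In SoF GR cells CCN1, CCN2 and AMOTL2 had fallen (8.11% of all genes) and WWTR1 and AMOTL1 had risen (11.2%). In Ctrl GR cells CCN1, CCN2 and ANKRD1 had fallen (5.6%) and WWTR1 and AMOTL1 had risen (8.58%). At 2 h the falls were those of CCN1 and CCN2 in wt (1.22% of all genes) and SoF (1.48%), with ANKRD1 added in Ctrl (2.38%), and the rise was that of WWTR1 alone in each line (3.39%, 4.2% and 5.58% of all genes in wt, SoF and Ctrl). At 1 h edgeR called 0 members in each line, beside 0.156% of all genes in wt, 0.165% in SoF and 0.0465% in Ctrl. At that time 2 members in wt, 1 in SoF and 1 in Ctrl had an unadjusted p under 0.05, and DESeq2 called 0 in each. The shares over all genes also move with single libraries: without replicate 2 of wt at 0 h the genes called in wt went from 37 to 118 at 1 h, from 1089 to 165 at 2 h and from 2534 to 1416 at 3 h, and without replicate 2 of Ctrl at 0 h those in Ctrl at 2 h went from 1881 to 346. Leaving out replicate 2 of wt at the later time gave 144 at 2 h and 953 at 3 h.

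CCN1 changed at 3 h by -1.57 ± 0.18 in wt GR cells, -1.80 ± 0.18 in SoF GR cells and -1.57 ± 0.18 in Ctrl GR cells on the log2 scale (adjusted p = 8.31e-06, 8.69e-07 and 8.84e-06). That of CCN2 was -1.46 ± 0.27, -1.55 ± 0.27 and -1.98 ± 0.27 (adjusted p = 0.000944, 0.000317 and 5.9e-05). WWTR1 changed by 1.11 ± 0.17, 1.11 ± 0.17 and 0.90 ± 0.17 (adjusted p = 0.000157, 8.68e-05 and 0.00119). The estimates of the lines stood furthest apart for ANKRD1, followed by CCN2 and YAP1. ANKRD1 changed by -0.63 ± 0.20 in wt (adjusted p = 0.0421), -0.51 ± 0.20 in SoF (adjusted p = 0.0727) and -1.14 ± 0.20 in Ctrl (adjusted p = 0.000542), and YAP1 by 0.54 ± 0.17, 0.46 ± 0.17 and 0.08 ± 0.17 (adjusted p = 0.0399, 0.054 and 0.799).

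Several of these calls were lost when a single library was left out or the scaling was changed, in some cases with the change itself about as large. Without replicate 2 of wt at 0 h, the wt change of CCN2 at 3 h was -0.74 (adjusted p = 0.0636) and that of ANKRD1 -0.22 (adjusted p = 0.612), and at 2 h CCN1 stood at -0.44 (adjusted p = 0.36) and CCN2 at -0.58 (adjusted p = 0.341). Without replicate 2 of wt at 2 h the calls at 2 h were lost at changes about as large, -0.81 for CCN1 (adjusted p = 0.161) and -1.28 for CCN2 (adjusted p = 0.117). The wt calls at 3 h were also lost for ANKRD1 without replicate 2 at 3 h (-0.42), and for AMOTL1 and YAP1 without replicate 1 at 0 h (0.30 and 0.34), replicate 1 at 3 h (0.47 and 0.49) or replicate 2 at 3 h (0.42 and 0.59). In SoF GR cells the AMOTL2 call at 3 h was lost without replicate 1 at 0 h (-0.30) or replicate 1 (-0.45) or 2 (-0.58) at 3 h. In Ctrl GR cells the AMOTL1 call at 3 h was lost without replicate 2 at 0 h (0.44) or 3 h (0.48), and the ANKRD1 call at 2 h without replicate 2 at 0 h (-0.73) or replicate 1 at 2 h (-0.68). The rise of WWTR1 at 2 h was lost in wt without either 0 h library or replicate 2 at 2 h (0.52, 0.85 and 0.51), in SoF likewise (0.51, 0.78 and 0.38) and in Ctrl likewise (0.63, 0.63 and 0.51). With library totals in place of TMM it narrowly missed the threshold in each line, at 0.61, 0.59 and 0.56 for wt, SoF and Ctrl (adjusted p = 0.0571, 0.0544 and 0.0567). The wt calls of ANKRD1 and YAP1 at 3 h were lost in the same way at -0.62 and 0.55 (adjusted p = 0.0599 and 0.056).

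**Figure D4:**
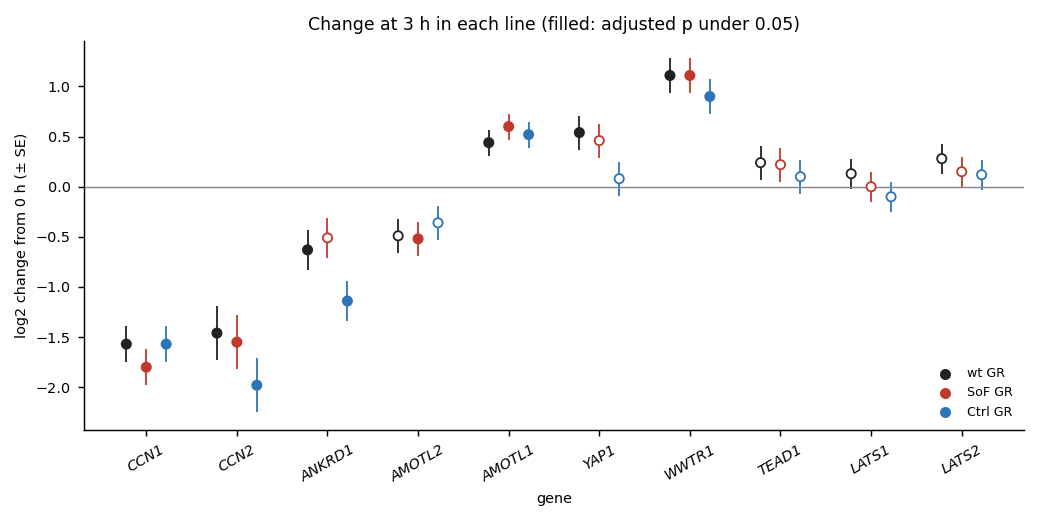
For each gene on the x axis, the y axis gives the log2 change from 0 h to 3 h in wt (black), SoF (red) and Ctrl (blue) GR cells, with bars of 1 SE, filled where the adjusted p is under 0.05. CCN1 lies between -1.80 and -1.57 and WWTR1 between 0.90 and 1.11 in the 3 lines, and the widest spread is that of ANKRD1, from -1.14 to -0.51.

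Whether the response itself differed between lines was tested by interaction contrasts in the same edgeR fit. No member differed at 1, 2 or 3 h between SoF and wt (0% of all genes called at each time), between Ctrl and wt (0% at each time) or between SoF and Ctrl (0% at 1 h and 2 h, 0.0127% at 3 h), and DESeq2 also called 0 members in each of the 9 contrasts. An unadjusted p under 0.05 was found for 1 member in each of 3 contrasts (Ctrl minus wt at 2 h, and SoF minus Ctrl at 2 h and 3 h) and for 0 in the other 6. In all 3 it was ANKRD1, which was chosen after its values were seen, with a difference of -0.58 ± 0.28 for Ctrl minus wt at 2 h and of 0.60 ± 0.28 and 0.63 ± 0.28 for SoF minus Ctrl at 2 h and 3 h. At 3 h the differences of SoF from wt ran from -0.23 ± 0.25 (CCN1) to 0.16 ± 0.19 (AMOTL1), and those of Ctrl from wt from -0.52 ± 0.37 (CCN2) to 0.13 ± 0.23 (AMOTL2). With SEs of this size the lines are not shown to respond alike.

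The third comparison was between the lines over all times, 8 libraries each, with time ignored. The methods of the study describe this for each mutant against wt, with DESeq2. Here edgeR was the main test, and SoF against Ctrl was added. No member was called for SoF against wt (8.02% of all 21122 genes tested there were), Ctrl against wt (4.77%) or SoF against Ctrl (3.61%). An unadjusted p under 0.05 was found for 1, 0 and 1 members, and DESeq2 called 1, 0 and 0. The member DESeq2 called was AMOTL2, with a range of 367 to 571 CPM in wt (median 460.3), 273 to 465 in SoF (median 359) and 345 to 523 in Ctrl (median 439.7), and edgeR gave a log2 difference of -0.34 ± 0.11 for SoF against wt (adjusted p = 0.056).

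Because the members change with time, the spread of that fit holds the time effect, and a fit with time as an added term made more calls. It called 4 members in SoF against wt (29% of all genes), 0 in Ctrl against wt (18.8%) and 3 in SoF against Ctrl (13.3%). The SoF level of AMOTL2 differed from wt by -0.34 ± 0.07 (adjusted p = 0.00104) and from Ctrl by -0.29 ± 0.07 (adjusted p = 0.00699). That of CCN1 differed from wt by -0.32 ± 0.08 (adjusted p = 0.00683) and from Ctrl by -0.36 ± 0.08 (adjusted p = 0.004). In SoF GR cells ANKRD1 differed from wt by -0.28 ± 0.11 (adjusted p = 0.0499), WWTR1 from wt by 0.27 ± 0.08 (adjusted p = 0.0126) and AMOTL1 from Ctrl by -0.21 ± 0.06 (adjusted p = 0.0176). With the 0 h libraries alone no member was called in any pair of lines, where the CCN1 difference of SoF from wt was -0.25 ± 0.27 (adjusted p = 0.748). Newly made RNA of NR3C1, the gene of the receptor, ran over all times from 333 to 1591 CPM in wt, 1116 to 6256 in SoF and 1624 to 7641 in Ctrl. The SoF range overlapped both others, and those of wt and Ctrl did not overlap. These are levels of RNA and not of protein. The study picked sorted fractions to match nuclear GR protein between lines by immunofluorescence and reported it relatively constant over 3 h. Neither the NR3C1 difference nor its part in these results was tested.

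Beyond the members, the pathway's other genes were taken from 4 lists. Of 19 upstream and core Hippo genes, all tested, 5 rose and 4 fell at 3 h in the mean of 3 lines, beside 20.9% and 19.3% of all tested genes, with a median log2 change of -0.03, which is the median of all tested genes. These shares are near the background. WWC1, the gene of the scaffold KIBRA that activates LATS kinases, rose by 1.29 ± 0.14 (2.44-fold, adjusted p = 2.1e-07). AMOT, the founding angiomotin, fell by 1.24 ± 0.16 on the log2 scale (2.36-fold, adjusted p = 1.77e-06), opposite to its relative AMOTL1. MAP4K4, a kinase that can phosphorylate LATS, rose by 0.48 ± 0.08 (adjusted p = 3.87e-05), and WWC2, the relative of WWC1, fell by 0.35 ± 0.08 on the log2 scale (adjusted p = 0.000976). The WWC1 rise and the AMOT fall were called in each line at 3 h, from 1.17 to 1.39 and from -1.41 to -1.09.

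Of 7 other TEAD and VGLL genes 6 were tested, and 3 rose and 1 fell at 3 h, beside 20.9% and 19.3% of all tested genes (median 0.21 beside -0.03). TEAD3 rose by 0.88 ± 0.10 (adjusted p = 3.52e-07), where TEAD1 did not pass, and TEAD4 by 0.27 ± 0.10 (adjusted p = 0.0416). VGLL4, a TEAD cofactor that competes with YAP, rose by 0.25 ± 0.08 (adjusted p = 0.0117), and VGLL2, a TEAD cofactor of the same family, fell by 0.46 ± 0.13 on the log2 scale (adjusted p = 0.00551). Per kilobase, TEAD1 had the highest mean of the TEAD genes at 28.4 CPM, followed by TEAD3 at 21.6 and TEAD4 at 20.1.

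Of 17 other YAP target genes 15 were tested, and 5 rose and 6 fell at 3 h, beside 20.9% and 19.3% of all tested genes, with a median of 0.06 beside -0.03. ASAP1, a regulator of Arf GTPases, rose by 0.82 ± 0.07 (adjusted p = 1.58e-08) and was at -0.06 ± 0.07 at 2 h (adjusted p = 0.575). FOXF2, a forkhead factor, rose by 1.76 ± 0.17 (3.4-fold, adjusted p = 3.21e-08). GADD45A, a stress response gene, fell by 0.76 ± 0.09 on the log2 scale (adjusted p = 4.95e-07). F3, the gene of tissue factor, rose by 0.99 ± 0.18 in the mean of lines (adjusted p = 0.000123), with 1.54 ± 0.31 in wt, 1.68 ± 0.31 in SoF and -0.25 ± 0.30 in Ctrl GR cells (adjusted p = 0.00216, 0.00064 and 0.63). The F3 response of Ctrl GR cells differed from that of wt by -1.79 ± 0.43 and that of SoF from Ctrl by 1.93 ± 0.43, neither past the test (adjusted p = 0.982 and 0.386).

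Of 4 other CCN genes 2 were tested, CCN3 and CCN4, and both rose at 3 h in the mean of 3 lines, as did 20.9% of all tested genes. By line, both were called higher in wt (6.6% of all genes), 1 in SoF (11.2%) and 0 in Ctrl GR cells (8.58%). CCN4 rose by 1.39 ± 0.17 (2.62-fold, adjusted p = 1.14e-06) and CCN3 by 0.63 ± 0.17 (adjusted p = 0.00542). Both were far less abundant, at 1.77 and 8.87 CPM per kilobase on average. CCN4 was also the listed CCN gene called between lines with time ignored, at 1.23 ± 0.34 for SoF against wt (adjusted p = 0.0255). In that comparison 8.02% of all tested genes were called. At 3 h CCN4 changed by 1.13 ± 0.30 in wt GR cells, 2.32 ± 0.29 in SoF GR cells and 0.71 ± 0.29 in Ctrl GR cells (adjusted p = 0.0169, 8.88e-06 and 0.109). The difference between the SoF and wt responses of CCN4, 1.19 ± 0.42, did not pass the test.

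Genes with the pattern most like that of the targets were sought by Pearson correlation of log2 CPM over the 12 group means, given as a description because all points share the same libraries and times. Nearest to CCN1 among 23650 genes were MYC (r = 0.992), RAB30 (0.987) and FER1L6 (0.986, at 1.28 CPM on average). Nearest to CCN2 were WEE1 (0.985), TGFBR3 (0.985) and IKZF2 (0.982), and nearest to ANKRD1 were LEKR1 (0.958, at 1.86 CPM), LINC01623 (0.955, at 2.25 CPM) and ETAA1 (0.952). Among the members, CCN1 correlated with CCN2 at 0.88, with ANKRD1 at 0.84 and with WWTR1 at -0.97, and YAP1 with WWTR1 at 0.32.

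**Figure D5:**
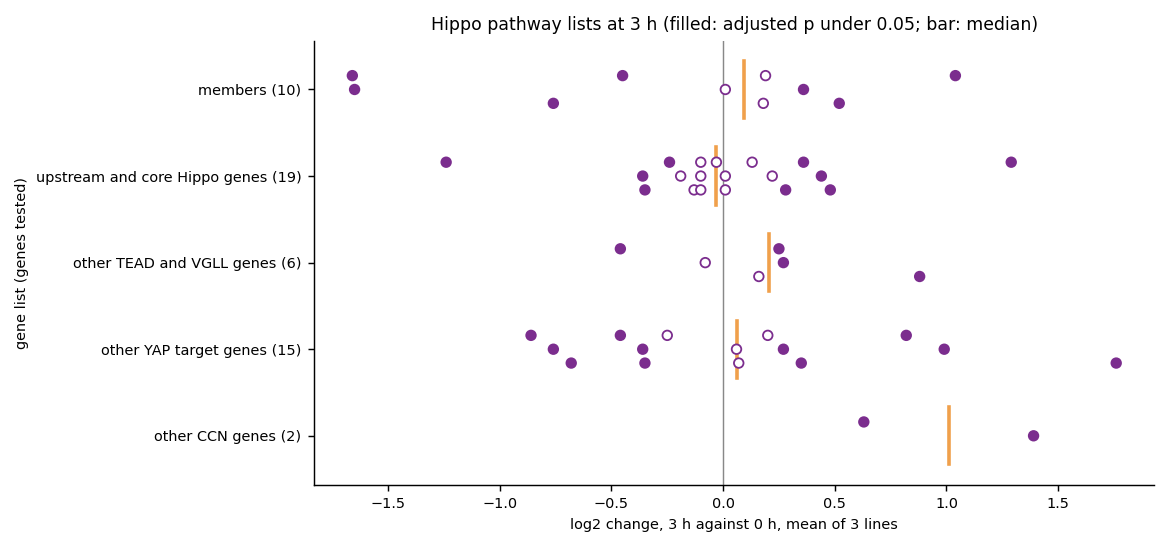
The x axis gives the log2 change from 0 h to 3 h as the mean of 3 lines, with 1 point per tested gene in each list on the y axis, filled where the adjusted p is under 0.05, and an orange bar at the list's median. The members spread from -1.66 to 1.04, and the 2 tested genes of the other CCN genes lie at 0.63 and 1.39.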

How the data were processed

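Exon counts per gene were deposited as 1 table of 24 libraries. Per the labels and methods, the authors trimmed reads with Trim Galore 0.6.6, aligned them to hg38 with STAR 2.7.3a, collapsed duplicates by molecular identifier with UMI-tools 1.1.2 and counted exons of GENCODE v39 with featureCounts, so copies of the same library fragment count once. Symbols and positions here come from GENCODE v44. The deposited counts were tested in R 4.3.3 with edgeR 4.0.16 (TMM, filterByExpr with a minimum count of 10 and a total of 15, quasi-likelihood F test on 12 groups, or on the 3 constructs alone), with Benjamini-Hochberg adjustment over all 23651 or 21122 genes tested and a call at an adjusted p under 0.05. SEs are the log2 change divided by the root of F. The fits were run on simulated counts with changes planted in wt at 3 h only. Those libraries were independent and shared a common spread. The simulation therefore does not test the mean of 3 lines, the interactions or the shared deviations at 0 h. DESeq2 1.42.0, other scalings, no filter, a replicate block and left-out libraries were alternatives. The members and lists were chosen with earlier results of these data known. All 10 members are named, with at most 4 called genes per list by smallest p at 3 h and the 3 genes nearest in pattern to CCN1, CCN2 and ANKRD1. Replicates of a group differed by 6.16 to 22.7 times counting noise (chi-square per degree of freedom), and precision is limited by that spread rather than by depth.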

Additional observations from a re-analysis of the deposited data

How the results depend on the processing

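Of 714 alternative values of the 48 single-member results that passed the test, 641 kept direction and call, 73 lost the call and 0 reversed. Of 986 values of results that had not passed, 41 gained a call and 25 changed sign by more than 1 SE. Sign changes of any size numbered 91 among values called in neither setting. This tally covers 130 single-member results and leaves out the interaction contrasts and the 1 h contrasts of single lines. At 3 h in the mean of 3 lines CCN1, CCN2, ANKRD1, AMOTL1, AMOTL2 and WWTR1 were called under all 19 alternatives, and the count was 7 in each, although without the 3 replicate 1 libraries at 0 h YAP1 lost its call (0.21) and LATS2 gained one (0.27, adjusted p = 0.0472), and the interaction contrasts gave 0 throughout. Replicate numbers did not pair the libraries throughout: deviations of same-numbered libraries correlated over 0.1 in 21 of 66 pairs of groups (median 0.04, lowest -0.22), but the 0 h groups of the 3 lines deviated together (0.39 to 0.57). Some pairs with a treated group were as high, such as SoF at 2 h with SoF at 0 h (0.43) and with Ctrl at 0 h (0.40). With a replicate block, 7 members were called at 3 h in wt, 6 in SoF, 5 in Ctrl and 7 in the mean of 3 lines, and 7 in that mean at 2 h. Of all 23651 genes the block called 2983, 5142, 3791 and 9968 at 3 h in the same order, beside 2534, 4563, 3354 and 9525 without it. In the mean at 2 h it called 7363, beside 6812. The cause of the changes below was not tested, and leaving out the 3 libraries of 1 replicate number at 0 h was chosen after seeing the data.

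Counts of members called moved as follows. At 1 h, no low-count filter gave 1 in wt and 1 in SoF in place of 0. That setting called 516 and 245 of 48707 genes, where the filtered fit called 37 and 39 of 23651. With the libraries of the line only, wt had 1 at 2 h and 3 at 3 h, beside 668 and 1895 of the 22116 genes tested there. Without the 3 replicate 2 libraries at 0 h, the count moved in wt and SoF at 1 h and in wt at 2 h. It also moved in the mean of 3 lines at 1 h and 2 h. Without the 3 replicate 1 libraries it moved in that mean at 1 h. Leaving out single libraries moved the count in wt at 1 h, 2 h and 3 h and in Ctrl at 2 h. Such fits leave 1 library in a group, and the number of all genes called moved with them. These moves are therefore not read as a result about the members. Between lines, SoF against wt had 1 under DESeq2, 4 with a time term (29% of all genes), 4 with a replicate block and time term, and 3 without the 0 h libraries. Ctrl against wt had 1 without the 0 h libraries. SoF against Ctrl had 3 with a time term (13.3% of all genes), 3 with the replicate block and time term and 3 without the 0 h libraries. Between lines, counts printed without a share of all genes are not read as a result about the members.

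Sign changes concerned results that had not passed the test. Over single left-out libraries, wt at 2 h ran from -0.62 to 0.12 for ANKRD1, -0.05 to 0.23 for AMOTL1, -0.41 to 0.01 for YAP1 and -0.24 to 0.41 for TEAD1. AMOTL2 at 2 h ran from -0.28 to 0.13 in SoF and -0.21 to 0.17 in Ctrl, and LATS1 in Ctrl from -0.31 to 0.07. In the mean of 3 lines at 1 h, CCN1 ran from -0.13 to 0.09 and CCN2 from -0.10 to 0.30. Without the 3 replicate 2 libraries at 0 h, ANKRD1 in wt at 2 h was 0.13, YAP1 in wt at 2 h 0.02, and LATS1 in the mean at 2 h 0.09. Without the 3 replicate 1 libraries, AMOTL1 in wt at 2 h was -0.05, AMOTL2 in SoF at 2 h 0.13, and in the mean CCN2 -0.16, LATS1 -0.03 and YAP1 -0.13 at 1 h, AMOTL2 0.06 at 2 h and LATS1 -0.09 at 3 h. With the 0 h libraries only, TEAD1 was 0.12 in SoF and 0.17 in Ctrl against wt, YAP1 0.14 in Ctrl against wt, and LATS1 and YAP1 -0.03 and -0.13 in SoF against Ctrl.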
